A study of Mus musculus with 6 samples.

Results

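Tnfrsf9 Nr4a T cells were the barcodes of the 4 libraries whose transcripts held several genes known to be switched on after antigen receptor engagement. A barcode was kept when it held at least 500 detected genes, at most 10% mitochondrial UMIs (unique molecular identifiers, each standing for 1 captured transcript), at least 1 UMI over Cd3e, Cd3d and Cd3g, and none of Epcam, Krt8 and Cd79a. A kept barcode was a member when it had at least 1 UMI in at least 3 of Tnfrsf9, Nr4a1, Nr4a3 and Myc, and no UMI of Il4, Il21 or Ascl2. In all, 137 of 2887 kept barcodes were members, from 4803 barcodes in the series. WT 1 held 95 of them, WT 2 held 24, mutant 1 held 13 and mutant 2 held 5, so the mutant side rests on few cells. The rule used measured values of these same cells, so a high level of the 4 rule genes and a low level of the 3 excluded genes is how the cells were chosen and not a result.

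The cells were OT-II CD4+ T cells, whose transgenic receptor recognises ovalbumin, from donors labelled OTII+/+RAG-/- that were either WT or TgfbrIWT/mut, a heterozygous M318R knock-in of the type I TGF-beta receptor. Both genotypes were transferred into CD45.1 WT hosts that drank 1.5% ovalbumin for 7 days, and on day 8 the Peyer's patches gave donor cells, sorted as CD45.2+CD45.1- and then CD4+CD8-TCRβ+, for 10x 3′ libraries. Hosts carried no mutation. Donor ages for this experiment are not in the labels, and the peanut gavage and rapamycin arms named in the series text are not tied to these libraries. Each genotype has 2 libraries, which the labels do not call separate animals, so p-values measure the spread between libraries, which may be technical. Antibody hashtags occur in the WT matrices only, so hashtag handling and genotype cannot be told apart. A point mutation leaves the 3′ tags of Tgfbr1 intact, so Tgfbr1 counts do not check the genotype labels.

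T cell receptor engagement raises calcium and activates kinases, and within hours it induces the Nr4a orphan nuclear receptors, which are used as reporters of recent signalling and which also restrain activation. Tnfrsf9 encodes 4-1BB, a costimulatory receptor placed on T cells after activation. Myc drives ribosome production and growth in stimulated T cells, and Srm, spermidine synthase of the polyamine pathway, is a well-known Myc target. In Peyer's patches, CD4+ T cells meet gut antigen, and many become T follicular helper (Tfh) cells that support germinal centre B cells.

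The Nr4a genes are the members' defining family and Nr4a2, the family member that the rule left out, had the highest ratio to other kept barcodes among genes outside the rule, so the 250 bases before each RefSeq start site are shown. The sequences are from RefSeq (GRCm38.p6), each on its gene's own strand, with TGACG or its reverse complement CGTCA in capitals. TGACG is the half-site of the cAMP response element bound by CREB-family factors. The windows are chr15:101266596-101266845 on the plus strand for Nr4a1, chr2:57124004-57124253 on the minus strand for Nr4a2, and chr4:48045055-48045304 on the plus strand for Nr4a3. GENCODE starts Nr4a3 at 48045153, inside its window, and Nr4a1 at 101254269, upstream of its window.
Nr4a1: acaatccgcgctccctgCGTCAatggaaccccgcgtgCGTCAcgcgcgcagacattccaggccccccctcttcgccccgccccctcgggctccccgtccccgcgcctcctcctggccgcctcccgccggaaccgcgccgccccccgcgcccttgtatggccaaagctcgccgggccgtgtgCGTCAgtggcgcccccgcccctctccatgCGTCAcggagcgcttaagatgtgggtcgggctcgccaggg
Nr4a2: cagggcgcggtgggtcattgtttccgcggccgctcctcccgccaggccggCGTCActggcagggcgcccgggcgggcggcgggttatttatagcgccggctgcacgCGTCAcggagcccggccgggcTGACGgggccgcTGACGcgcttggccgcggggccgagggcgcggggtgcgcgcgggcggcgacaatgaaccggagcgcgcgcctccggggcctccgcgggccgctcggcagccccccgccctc
Nr4a3: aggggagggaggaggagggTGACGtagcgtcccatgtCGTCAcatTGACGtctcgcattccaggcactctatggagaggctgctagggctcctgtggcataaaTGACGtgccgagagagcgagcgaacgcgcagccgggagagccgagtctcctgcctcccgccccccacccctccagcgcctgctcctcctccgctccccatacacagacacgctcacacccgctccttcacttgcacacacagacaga
All 3 windows held 4 half-sites, counting both strands. Of 32851 promoter windows of the same length, 17.77% held at least 1 half-site and 0.137% held 4 or more. The full element TGACGTCA (1.55% of windows), the AP-1 element TGANTCA (6.75%), the E-box CACGTG (6.02%) and the NFAT core GGAAAA (20.43%) were searched on both strands and were in none of the 3 windows. The half-site, which overlaps the full element, was searched only after these gave no match. The 2 windows listed for Tnfrsf9 held no half-site. These matches describe letters only and say nothing of binding in these cells.

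The members' depth was somewhat above that of the other kept barcodes, which matters because a deeper cell shows more of the 4 rule genes. Members had median depths of 9788, 9990, 9089 and 13403 UMIs in WT 1, WT 2, mutant 1 and mutant 2, and the others had 8765, 8547.5, 8492 and 9039. Mitochondrial shares had medians of 2.73% to 3.13% in members and 2.82% to 3.72% in others. Scrublet called 31 barcodes as doublets over the 4 libraries, and none was a member; they were left in. Between 9 and 21 barcodes of each library occurred in another library, again with no member among them. Summed over members, the libraries held 1012038, 260010, 130485 and 65680 UMIs, so 1 UMI was worth 0.988 CPM (counts per 1000000 UMIs) in WT 1 but 15.2 CPM in mutant 2.

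Members met the rule through different sets of genes. The combination of Tnfrsf9, Nr4a1 and Nr4a3 without Myc made up 56 members, and 31 members held all 4 genes. Tnfrsf9, Nr4a1 and Myc made up 26, Tnfrsf9, Nr4a3 and Myc 13, and Nr4a1, Nr4a3 and Myc 11. At the threshold, the 229 kept barcodes just outside had exactly 2 rule genes and none of the excluded genes, against 106 just inside with exactly 3. Another 36 barcodes had 3 or 4 rule genes and also Il4, Il21 or Ascl2, and 16 of these were in mutant 1.

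Detection of the rule genes in members follows from the rule, and is given beside that in non-T barcodes, which are shallower. Tnfrsf9, the 4-1BB receptor, had a UMI in 92.6%, 91.7%, 92.3% and 80.0% of members, and in none of the 7, 28, 25 and 10 barcodes without Cd3 that carried Epcam, Krt8 or Cd79a. Those barcodes had median depths of 5368, 6507.5, 1868 and 1865 UMIs. Myc, in contrast, was in 60.0%, 45.8%, 76.9% and 60.0% of members, with 14.3%, 14.3%, 8.00% and 0% of the non-T barcodes holding a UMI. Srm was found in 25.3%, 33.3%, 15.4% and 40.0% of members, and in 28.6%, 25.0%, 12% and 0% of the non-T barcodes. Other kept barcodes held Srm in 13.0%, 12.9%, 11.5% and 7.57%. Members thus had a higher share than the other kept barcodes in each library, while against the shallower non-T barcodes, whose own use of Srm is not known, they were lower in WT 1 and higher in the remaining 3 libraries.

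By the rule, Nr4a3, an orphan nuclear receptor induced by receptor signals, stood highest over the other kept barcodes. Its level was 193, 146, 268 and 731 CPM in members of WT 1, WT 2, mutant 1 and mutant 2, against 12, 10.2, 11.2 and 12.8 CPM in others. Myc stood at 143, 65.4, 153 and 152 CPM against 10.9, 8.72, 9.83 and 6.97 CPM. The other family member used by the rule, Nr4a1, which marks recent receptor signals in reporter mice, was at 449, 354, 345 and 259 CPM against 50.4, 44.0, 35.8 and 25.0 CPM. For all 3, every member sum lay above every other sum, which the selection fixes.
Tnfrsf9 differed least of the 4 rule genes, with 432, 327, 483 and 381 CPM in members and 136, 109, 96.0 and 79.0 CPM in others. The median log2 ratio of members to others, taken within each library after adding 5 CPM to both, was 3.81 for Nr4a3, 3.32 for Myc, 3.07 for Nr4a1 and 1.92 for Tnfrsf9. Tnfrsf9 was thus common outside the members too, with a UMI in 43.5% of the other barcodes of WT 1. Srm, which the rule did not use, was at 62.3, 96.2, 76.6 and 30.5 CPM in members against 23.5, 22.9, 17.5 and 11.0 CPM, a median log2 ratio of 1.55. It was higher in members of all 4 libraries, though mutant 2 gave only 2 UMIs.

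**Figure D1:**
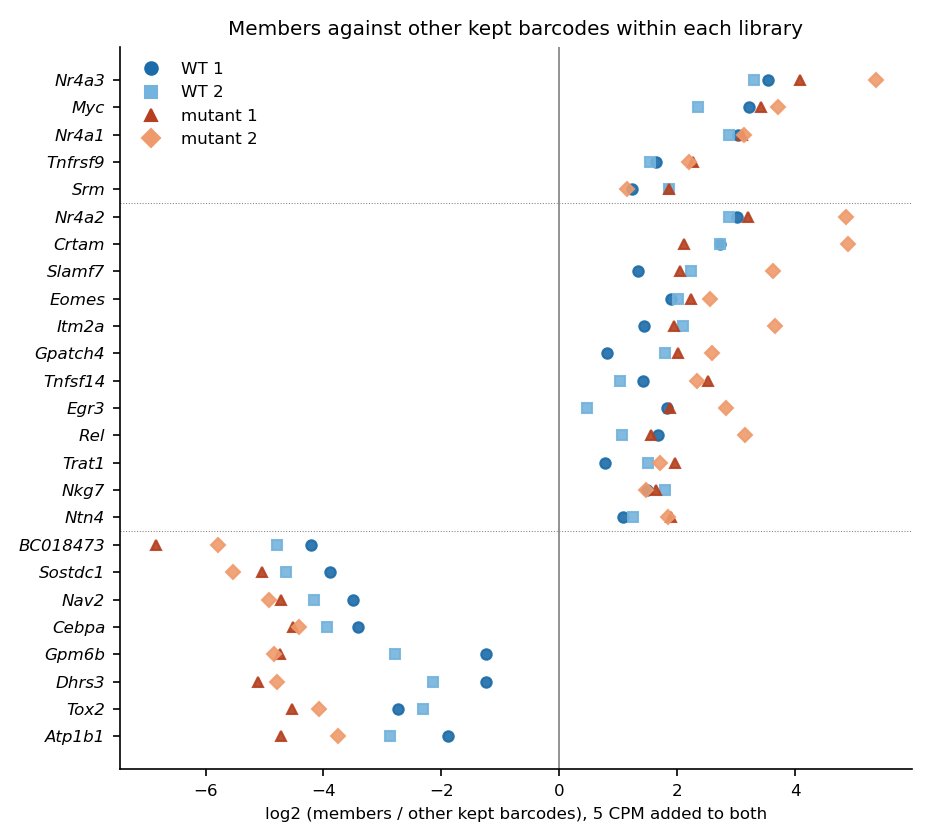
Log2 ratio of summed CPM in Tnfrsf9 Nr4a members to that in the other kept barcodes of the same library (x axis, 5 CPM added to both) for the rule genes, Srm and the genes highest and lowest in members, 1 point for each library. Nr4a2 lies at 2.87 or above in every library, and Sostdc1 and Cebpa, at 0 UMIs in members, lie far to the left in every library.

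Few other genes stood as high in members. Of 5449 genes with at least 20 CPM in members or others of every library, leaving out the rule genes, 16 were at least 2-fold higher in members of all 4 libraries (0.294%) and 43 at least 2-fold lower (0.789%). Without the size limit, 712 genes (13.1%) were higher and 1127 (20.7%) lower in all 4, and the median log2 ratio over all genes was -0.08. No test was run on members against others, since the members were chosen from these values. In such sums, fewer cells with a transcript and less of it in each cell cannot be told apart.

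Nr4a2, the remaining Nr4a receptor, led this list. Members held 108, 135, 176 and 396 CPM of it, against 8.92, 14.0, 14.8 and 8.71 CPM in others, a median log2 ratio of 3.11. Each member sum exceeded every sum of the others. Its transcripts were nonetheless in a minority of members, since 29 of 137 (21.2%) had a UMI of Nr4a2, against 87 of 2750 others (3.16%), and 15 of its 23 UMIs in mutant 1 came from 1 cell.
Egr3, a transcription factor induced by receptor signals that limits T cell activation, stood at 234, 115, 376 and 365 CPM against 62.6, 82.3, 98.9 and 47.1 CPM, a median log2 ratio of 1.85. WT 2 had the smallest gap, with 12 of its 24 members holding a UMI. Rel, the NF-kappaB subunit c-Rel, was at 237, 158, 330 and 670 CPM against 70.8, 72.8, 109 and 70.9 CPM (median 1.61), and all 4 member sums were above all 4 sums of the others. Irf4, a factor that scales with receptor signal strength, was at 36.6, 65.4, 146 and 91.4 CPM against 19.7, 22.6, 44.3 and 14.5 CPM (median 1.48). The Irf4 groups overlapped across libraries, but members were higher within each. In mutant 2, the 1 member with all 4 rule genes gave 5 Irf4 UMIs, and the other 4 members gave 1, at 24.0 CPM.

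Several of the remaining leading genes are known from cytotoxic and effector CD4+ cells. Crtam, an adhesion receptor of cytotoxic-type CD4+ T cells, was at 121, 135, 76.6 and 472 CPM against 14.0, 16.1, 13.8 and 11.0 CPM, a median log2 ratio of 2.72. In mutant 2, 30 of its 31 UMIs came from 1 cell. Eomes, a T-box factor of cytotoxic cells, was at 165, 181, 176 and 320 CPM against 41.0, 40.8, 33.5 and 50.0 CPM (median 2.13). All 4 libraries were higher in members, but 19 of 23 UMIs in mutant 1 and 17 of 21 in mutant 2 were from 1 cell each.
Nkg7, a cytotoxic granule membrane protein, was at 214, 223, 76.6 and 107 CPM against 72.9, 60.9, 21.2 and 35.4 CPM (median 1.57). Its UMIs in each mutant library, 10 and 7, came from a single cell each. Slamf7, a SLAM-family receptor, had a median of 2.13, with 76.1, 192, 161 and 472 CPM against 27.1, 37.2, 35.2 and 33.7 CPM. Of its UMIs, 16 of 21 in mutant 1 and 25 of 31 in mutant 2 came from 1 cell each. At the level of cells, 24 of 137 members (17.5%) held both Eomes and Nkg7, against 101 of 2750 others (3.67%), so most members did not carry this pair. Of the 15 cytotoxic and Th1 genes listed, only Nkg7, Eomes and Stat4 passed the 20 CPM limit, and Gzma, Gzmb and Il12rb2 had no UMI in any member.
The other genes named by rank were Itm2a (median 2.02), a membrane protein of activated T cells, Gpatch4 (1.90), a nucleolar protein, Tnfsf14 (1.88), the ligand LIGHT, Trat1 (1.61), a receptor-associated adaptor, and Ntn4 (1.55), a netrin. Members exceeded others in every library for these 5 genes, though 21 of the 24 Itm2a UMIs in mutant 2 came from 1 cell.

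The members' lowest genes included Tfh genes such as Sostdc1 and Tox2. The rule's exclusion of Il4, Il21 and Ascl2 bears on them, since it takes Tfh cells out of the members but leaves them in the others. Sostdc1, a secreted Wnt antagonist known from Tfh cells, had no UMI in members of any library and 69.3, 120, 160 and 227 CPM in others. Cebpa, a basic leucine zipper factor, likewise had none, against 48.6, 71.7, 110 and 101 CPM. BC018473, an antisense RNA whose reads cannot be told from an overlapping gene's unless strand was used in counting, was at 1.98, 3.85, 0 and 0 CPM against 125, 240, 570 and 272 CPM. All 3 were lower in every library. The next lowest by rank were Nav2, Gpm6b, Dhrs3, Tox2 and Atp1b1, with median log2 ratios of -4.44, -3.76, -3.46, -3.40 and -3.32. Tox2 is a partner of Bcl6 in Tfh cells. Maf, a factor of Tfh cells, was at 441, 542, 490 and 198 CPM against 1053, 1466, 1699 and 1578 CPM, below all sums of the others.

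Measured against the 1191 other kept barcodes that also lacked Il4, Il21 and Ascl2 (a comparison added after the data were seen), fewer genes passed 2-fold. Here 14.8% of 5233 genes were higher and 17.7% lower in all 4 libraries. Of them, 5 were at least 2-fold higher in all 4 libraries (0.0955%), namely Tnfsf14 (2.48), Nr4a2 (2.20), Rel (1.77), Cd274 (1.41) and C1qbp (1.23), each given as the median log2 ratio. The Tnfsf14 ratio rests on 34, 7, 15 and 4 member UMIs. These others held 7.05, 7.49, 6.19 and 1.81 CPM of it, near the 5 CPM added to both sides. In mutant 1, 14 of the 15 Tnfsf14 UMIs were in the 5 members with all 4 rule genes. Cd274 encodes the inhibitory ligand PD-L1, and C1qbp a mitochondrial matrix protein. Crtam (1.90), Egr3 (1.74), Gpatch4 (1.91), Itm2a (1.02) and Eomes (0.99) still had positive medians, while Nkg7 (0.30) was higher in only 2 of 4 libraries.
On the low side 16 genes (0.306%) were at least 2-fold lower in all 4, led by Nav2 (-2.52), and they included Pik3ip1 (-2.08), an inhibitor of PI3-kinase, Txnip (-1.17), a brake on glucose uptake, and Id2 (-1.36), an inhibitor of E proteins, which were not among the 43 genes lower against all others. Sostdc1 (-2.70) and Tox2 (-1.90) had medians below 0 in this comparison too, but neither passed the 20 CPM limit here. In the WT 1 others they were at 2.65 and 10.1 CPM, near the 5 CPM added to both sides. The genes past 2-fold were picked for mention by this comparison's own count, after their values were seen.

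Gene groups gave a like picture. In the lists below, the most abundant tested genes were named by rule, and further genes after their values were seen. Genes of Myc-driven growth and the nucleolus were higher in members: of 30 listed, 25 passed the 20 CPM limit, 22 were higher and none was lower in all 4 libraries, with a median log2 ratio of 0.96, beside 13.1% and 20.7% of all genes and a median of -0.08. Npm1, nucleophosmin of the nucleolus, was at 1759, 1915, 1678 and 974 CPM in members and 1006, 935, 887 and 800 CPM in others. Ncl, nucleolin, was at 873, 1311, 1341 and 1081 CPM against 576, 602, 551 and 538 CPM. Hspd1, the mitochondrial chaperonin, was at 576, 673, 467 and 518 CPM against 276, 234, 190 and 188 CPM. The member sums of these 3 genes stood above those of the others in every library, though 42 of the 64 Npm1 UMIs in mutant 2 came from 1 cell, and its other 4 members were at 528 CPM, below the others' 800 CPM. Against the others without Il4, Il21 and Ascl2, 22 of 24 genes were higher in all 4, with a median of 0.90. The transferrin receptor Tfrc had a median of 0.78 and the amino acid carrier subunit Slc3a2 one of -0.27.

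Receptor-signal genes other than the 4 of the rule were mixed. Of 28 listed, 24 passed, 9 were higher and 2 lower in all 4 libraries, and the median was 0.36. Egr1, an early zinc finger factor, was at 416, 273, 391 and 228 CPM against 201, 248, 293 and 172 CPM, higher within each library but overlapping across them, and Nfatc1 was level (-0.06). Next to Nr4a2, Egr1, Egr3 and Irf4, the higher ones included Dusp2 (0.82) and Dusp5 (1.12), phosphatases that act on ERK, and Tagap (1.52), a GTPase-activating protein of activated T cells. Cd69, an early activation marker, was at 388, 165, 391 and 198 CPM against 246, 201, 227 and 122 CPM, and so was lower in members of WT 2. Icos (-0.73), a costimulator of Tfh cells, and Nfil3 (-1.72) were lower in all 4. Immediate-early genes did not stand apart, with 1 of 17 higher in all 4, 3 lower and a median of -0.06, and Ier2 (0.91) was the 1 that was higher. The most abundant of them, Btg1 (-0.05), Jund (-0.02), Zfp36l1 (0.25) and Junb (0.31), had members higher in 1 to 3 libraries. Il2, the growth factor of newly stimulated T cells, had 1 UMI over all members, in mutant 1. Outside the rule, the label of recently stimulated cells is thus borne by Nr4a2, Egr3, Irf4 and the growth genes, against all other kept barcodes. Cd69, most immediate-early genes and Il2 did not set the members apart. Among kept barcodes without Il4, Il21 and Ascl2, Egr3 with exactly 2 rule genes was at 107, 212, 214 and 224 CPM in WT 1, WT 2, mutant 1 and mutant 2. With 3 it was at 251, 102, 260 and 576 CPM, so in WT 2 the cells just outside the members were higher.

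NF-kappaB subunits and targets were higher or level: 6 of 15 were higher and none lower in all 4 libraries, with a median of 0.33, and 10 were higher against the others without Il4, Il21 and Ascl2, with a median of 0.62. Nfkbia, the inhibitor induced by NF-kappaB itself, was at 425, 331, 506 and 335 CPM in members against 256, 240, 284 and 185 CPM in others. The cytokine and TNF-family list had 4 genes past the limit, 2 higher and 2 lower, and a median of -0.21. Heat-shock genes, constitutive and induced, had a median of 0.49, with 6 of 10 higher and none lower in all 4. Hspa8, the constitutive Hsc70 chaperone, was at 2936, 2777, 2652 and 2375 CPM against 1825, 1468, 1462 and 1328 CPM, with no overlap between members and others.

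Tfh markers were lower: 11 of 18 were lower and 1 higher in all 4 libraries, with a median of -0.86, which moved to -0.15 against the others without Il4, Il21 and Ascl2, where 6 of 15 were lower in all 4. Cxcr5, the follicle-homing receptor, had a median log2 ratio of -0.65 and Bcl6, the Tfh lineage factor, one of -1.38. Even so, 46 of 137 members (33.6%) had a Cxcr5 UMI, against 1033 of 2750 others (37.6%). Inhibitory receptors and anergy genes had 3 of 14 higher and 6 lower in all 4, with a median of -0.22. Cd274 was among the higher, at 67.2, 69.2, 115 and 107 CPM against 27.8, 27.9, 29.0 and 30.2 CPM, and Pdcd1 (PD-1, -1.28) and Nt5e (CD73, -2.16) were lower.

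For the remaining lists the comparison cells mattered in part. Glycolysis and sugar uptake genes had 9 of 13 lower in all 4 libraries and a median of -0.34, but a median of 0.15 against the others without Il4, Il21 and Ascl2, with 5 higher. Cell-cycle genes had a median of 0.19 (0.62 against those others), with Pcna (0.50) and Stmn1 (0.79) higher, while 8 of 137 members (5.84%) held Mki67 or Top2a, against 444 of 2750 others (16.1%), a gap that went the other way in mutant 2 (40.0% of 5 members, 24.3% of others). Naive, memory and recirculation genes had 3 of 13 higher and 4 lower in all 4 and a median of -0.24, but 1 of 15 higher, 8 lower and a median of -0.52 against the others without Il4, Il21 and Ascl2. Interferon-stimulated genes had 3 of 7 lower in all 4 and a median of -0.60 against all others, and 1 of 5 lower and a median of -0.47 against those others. Treg markers (6 passed), gut-homing genes (8) and apoptosis genes (11) had medians of -0.13, -0.10 and 0.06. Foxp3, the Treg lineage factor, had a UMI in 10 of 137 members (7.30%), all of them from the WT libraries, against 142 of 2750 others (5.16%). Within libraries, the shares were 9.47% of members and 8.94% of others in WT 1, and 4.17% and 4.41% in WT 2. Among TGF-beta ligands, receptors and Smads 7 passed, with a median of -0.27, and only the ligand gene Tgfb1 was higher in all 4, at 249, 181, 299 and 228 CPM against 164, 158, 134 and 137 CPM. Genes induced by TGF-beta or feeding back on it had 2 of 9 higher in all 4, Skil (0.87) and Tgif1 (1.33), both co-repressors of Smads.

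**Figure D2:**
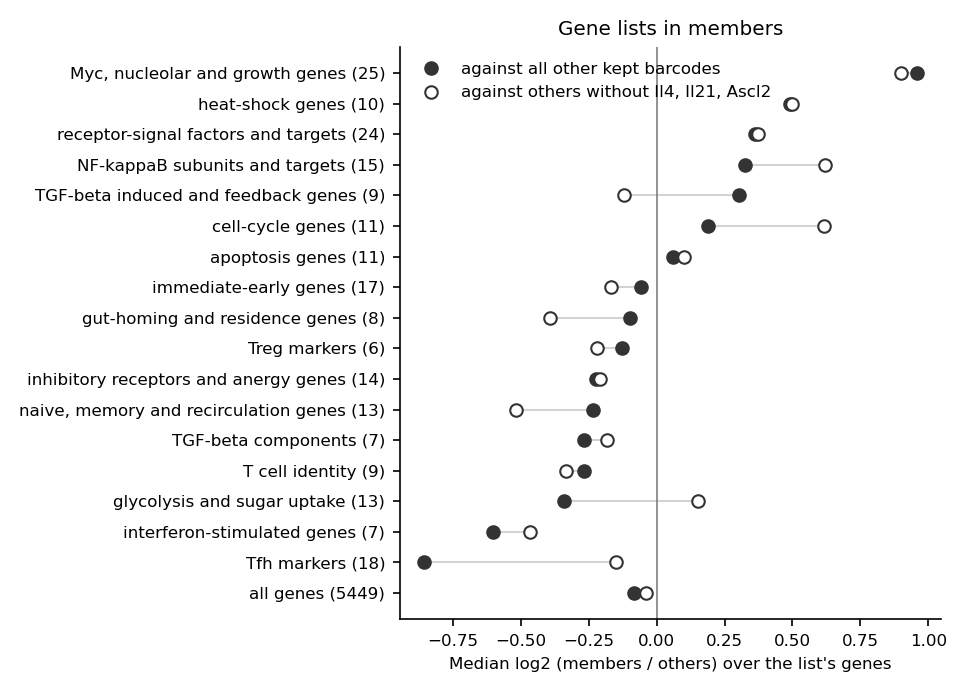
Median log2 ratio of members to other kept barcodes (x axis) for each gene list, with the number of genes above the level limit in brackets; filled points use all other kept barcodes and open points only those without Il4, Il21 and Ascl2. Growth genes lie near 0.9 in both comparisons, whereas Tfh markers move from -0.86 to -0.15.

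Markers of other cell types were mostly undetected in members, with a few exceptions per list. Of 14 B cell markers 11 had no UMI in members, Ms4a1 included, and their summed level was 61.5 to 107 CPM in members against 182 to 351 CPM in others. Cd74, the class II invariant chain, which is on that list, had a UMI in 4.21%, 16.7%, 15.4% and 40.0% of members (4, 4, 2 and 2 cells) against 4.82%, 4.07%, 4.44% and 5.41% of others, and the part of these cells in the results was not tested. Of 14 myeloid markers 11 were at 0, Lyz2 and Csf1r included, with sums of 123 to 193 CPM against 187 to 221 CPM, nearly all from Cst3 and Ctss. Of 10 NK, ILC and CD8 markers 7 were at 0, Cd8a and Ncr1 included, with sums of 0 to 42.3 CPM against 25.6 to 46.3 CPM. Plasma cell markers (3 of 7 at 0) summed to 53.6 to 152 CPM against 52.3 to 73.1 CPM, mostly from Xbp1, and stromal markers (5 of 8 at 0) to 53.6 to 80.0 CPM. Epithelial markers were at 0 for 10 of 12 genes, and red cell and platelet markers for 6 of 7. T cell identity genes outside the rule were somewhat lower in members, with 7 of 9 lower in all 4 libraries and a median of -0.27.

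For several genes, levels in WT 1 mostly rose or fell with the number of rule genes among kept barcodes without Il4, Il21 and Ascl2. For Rel, Npm1, Srm and Maf in WT 1, no break stood out at the threshold of 3, though breaks were not tested. Elsewhere steps at the threshold were larger. Rel in mutant 2 went from 91.4 CPM with 2 rule genes (10 cells) to 984 CPM with 3 (4 cells). Rel in WT 1 was at 59.1, 52.4, 118, 198 and 354 CPM in cells with 0, 1, 2, 3 and 4 rule genes. Npm1 was at 786, 1042, 1471, 1800 and 1635 CPM, and Srm at 9.45, 29.9, 52.8, 60.5 and 67.6 CPM. Maf went the other way, at 953, 646, 508, 481 and 318 CPM. Cells with exactly 2 rule genes, just outside the members, were thus between those with 1 and those with 3 for all 4 genes.
In WT 2, Npm1 was at 849, 940, 1406, 1840 and 2417 CPM, the last from 3 cells, and Rel at 58.0, 77.4, 93.6, 168 and 88.4 CPM. The steps were not seen for every gene and library: Npm1 in mutant 2 was at 734, 740 and 731 CPM with 0, 1 and 2 rule genes, 528 CPM with 3 (4 cells) and 1750 CPM in the 1 cell with 4, and Nr4a2 in mutant 1 was at 9.26, 109, 45.0, 104 and 280 CPM over 0 to 4. Egr3 in WT 2 was at 38.6, 69.7, 212, 102 and 206 CPM over 0 to 4, and so was highest just outside the members. In cells with 1 rule gene, Eomes was at 63.3, 156, 216 and 277 CPM in WT 1, WT 2, mutant 1 and mutant 2. Members were at 165, 181, 176 and 320 CPM. Crtam there was at 17.1, 63.2, 78.0 and 81.2 CPM, against 121, 135, 76.6 and 472 CPM in members. Slamf7 was at 36.9, 150, 176 and 110 CPM, against 76.1, 192, 161 and 472 CPM. In mutant 1 the cells with 1 rule gene thus exceeded the members for these genes. Median depth rose as well, from 7324.5 UMIs with no rule gene to 11143.5 with 4 in WT 1, and its part in these levels was not tested. Against barcodes with exactly 2 rule genes, 2 of 4849 genes were at least 2-fold higher in all 4 libraries and none was at least 2-fold lower.

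**Figure D3:**
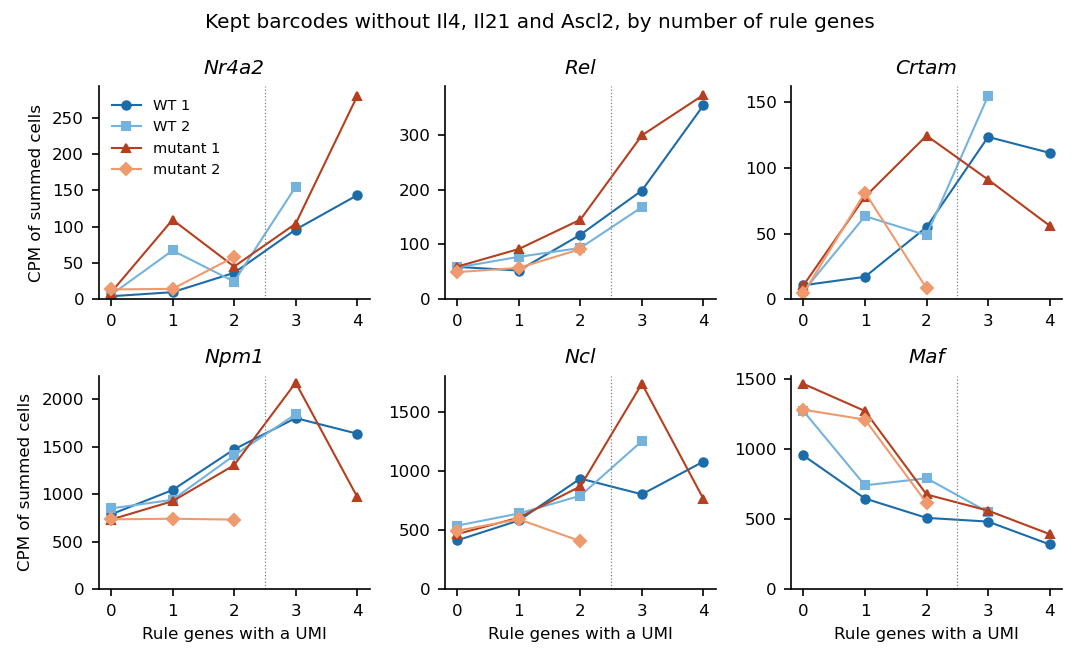
Summed CPM (y axis) in kept barcodes without Il4, Il21 and Ascl2 by how many of the 4 rule genes had a UMI (x axis), 1 line per library, with points of fewer than 5 cells left out; members lie to the right of the dotted line. In WT 1, Rel goes from 59.1 to 354 CPM and Maf from 953 to 318 CPM.

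By genotype, members made up 7.69% of kept barcodes in WT 1 (95% exact binomial interval 6.26% to 9.31%), 3.91% in WT 2 (2.52% to 5.76%), 1.53% in mutant 1 (0.820% to 2.61%) and 2.63% in mutant 2 (0.860% to 6.03%). The intervals cover counting error only. Both mutant libraries were below both WT libraries, with 5.80% ± 2.67 in WT and 2.08% ± 0.776 in mutant (SD, n = 2 each). The difference of -3.71 percentage points had a two-sided exact permutation p of 0.33, the smallest that 2 against 2 libraries allow.
With every cell thinned to 4000 UMIs, the shares were 3.33%, 1.04%, 0.888% and 1.23%, so mutant 2 lay above WT 2 and the groups overlapped; 34, 35, 59 and 27 shallower barcodes were left out. With all 4 rule genes required, the shares were 1.78%, 0.489%, 0.590% and 0.526%, and overlapped again. With at least 2 required they were 18.7%, 12.7%, 4.96% and 7.89% and did not overlap.
The exclusion genes also moved with genotype, since 58.7%, 45.1%, 29.0% and 41.6% of kept barcodes lacked Il4, Il21 and Ascl2. Among those alone, members were 13.1%, 8.66%, 5.28% and 6.33%, with the mutant libraries again lower. With no exclusion at all, the shares were 8.66%, 5.05%, 3.42% and 3.16%. How far the exclusion sets the genotype difference was not tested beyond these values.

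**Figure D4:**
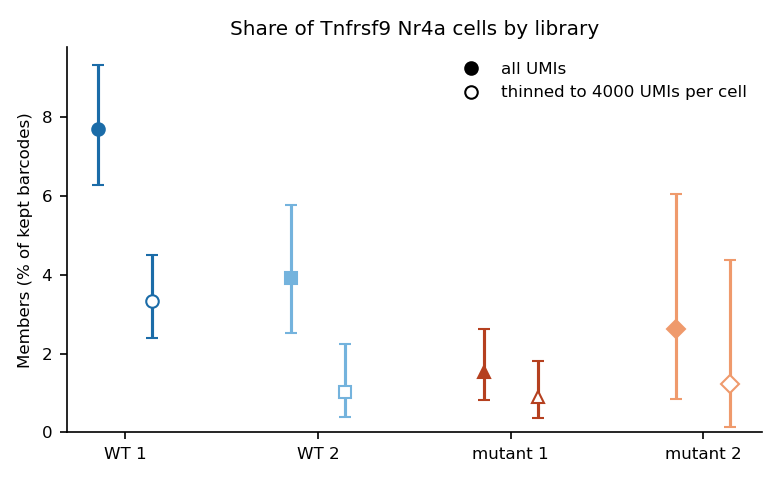
Share of kept barcodes that were Tnfrsf9 Nr4a members (y axis, percent) in each library, with exact 95% binomial intervals; filled symbols use all UMIs and open symbols cells thinned to 4000 UMIs. The filled WT points, 7.69% and 3.91%, lie above both mutant points, but after thinning mutant 2 (1.23%) lies above WT 2 (1.04%).

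Within members, the genotype comparison asked which genes differ between WT and mutant cells of this kind. Levels below are CPM scaled by TMM over members, and differences are mutant minus WT on the log2 scale. Of 3083 genes tested with edgeR's quasi-likelihood test, none rose and 2 fell at an adjusted p under 0.05 (0% and 0.0649%), with 241 at an unadjusted p under 0.05. DESeq2 called none, with 60 at an unadjusted p under 0.05. On simulated counts of this comparison, 35.1% of 2-fold and 87.8% of 4-fold changes were recovered.

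The genes that fell were Hspa1a and Hspa1b, which encode the inducible Hsp70 chaperone and lie close together on chromosome 17 of mm10 (34969190 to 34972156 and 34956436 to 34959238, both on the minus strand). Hspa1b was at 312 and 259 CPM in WT and 26.1 and 16.9 CPM in mutant members, a difference of -3.35 ± 0.44 (SE, edgeR adjusted p = 0.00941). Both mutant libraries lay far below both WT libraries. Hspa1a was at 264 and 163 CPM in WT and had no UMI in the 13 and 5 mutant members (edgeR adjusted p = 0.0139). In WT 1, 40 of 95 members held it, and in WT 2 6 of 24, where 1 cell gave 20 of 37 UMIs. Among the others, 93 of 834 barcodes of mutant 1 and 52 of 185 of mutant 2 held it. Pooled WT members, at 213 CPM before TMM scaling, stood 13.9-fold above a floor of 3 counts over the 196165 mutant member UMIs. That floor treats UMIs as independent draws, though they came from few cells, so it does not bound the fall.
The pair are near-identical copies, so reads may have been split between them and neither is certain alone. In the other kept barcodes Hspa1a was at 193, 114, 35.8 and 89.5 CPM, a difference of -1.47 ± 0.29 (edgeR adjusted p = 0.0144), and Hspa1b differed by -1.19 (edgeR adjusted p = 0.181). When barcodes with at least 2 rule genes were used, neither gene passed: Hspa1b differed by -1.56 (edgeR adjusted p = 0.441) and Hspa1a by -2.08 (edgeR adjusted p = 0.334). Over all 14 fits run, Hspa1b passed in 12 and Hspa1a in 10, with adjusted p from 2.75e-09 to 0.441 and from 3.95e-11 to 0.334. For every gene within members, the fits without doublets and without shared barcodes repeat the main fit, since they removed no member. Of the heat-shock list 10 genes were tested, and the other 8 did not pass.

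The genes next in order of p did not pass the threshold. Fos, an AP-1 subunit induced within minutes of stimulation or cell handling, was at 389 and 233 CPM in WT and 69.5 and 16.9 CPM in mutant members (-2.53 ± 0.46, edgeR adjusted p = 0.0726), with both mutant libraries lower. Without overlap, 21.6% of the 3083 genes were lower and 19.7% higher in the mutant libraries. Fos passed in 8 of the 14 fits that tested it (edgeR adjusted p from 1.67e-07 to 0.277), among them each fit that left out 1 library. In the other kept barcodes Fos fell by 1.60 (edgeR adjusted p = 0.000241). Ramp1, a co-receptor for the neuropeptide CGRP, was at 126, 132, 8.69 and 16.9 CPM (-2.92, edgeR adjusted p = 0.0726) and fell by 1.61 in the others (edgeR adjusted p = 0.000191). Klf2, a factor for recirculation, was at 171, 114, 26.1 and 16.9 CPM (-2.44, edgeR adjusted p = 0.111), and Jun differed by -1.66 (edgeR adjusted p = 0.111). The test of the difference between members and others did not call Fos, Ramp1, Klf2 or Jun, so their effects were not shown to differ between members and others. Klf2 and Jun were named after their values were seen.
Among higher genes, Arap2, a regulator of small GTPases, was at 98.0, 92.4, 313 and 203 CPM (1.44 ± 0.30, edgeR adjusted p = 0.111). Pou2f2, the octamer factor Oct-2, was at 422, 374, 843 and 762 CPM (1.00 ± 0.21, edgeR adjusted p = 0.111), and was level in the others (0.03, edgeR adjusted p = 0.957). For both genes the mutant libraries were above the WT libraries. Utrn (0.98), Atxn1 (1.55) and Gbp7 (2.56) each had an edgeR adjusted p of 0.257. Single libraries decided several of these calls. Without mutant 2, Arap2 (1.65, edgeR adjusted p = 0.000149), Pou2f2 (1.05, edgeR adjusted p = 0.000464), Ramp1 (-3.29, edgeR adjusted p = 0.00200), Klf2 and Jun passed, and without mutant 1 Gbp7 (3.34, edgeR adjusted p = 2.78e-06), Utrn, Klf2 and Jun did. Gbp7 also passed without WT 1, and Klf2 and Jun without WT 2.

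**Figure D5:**
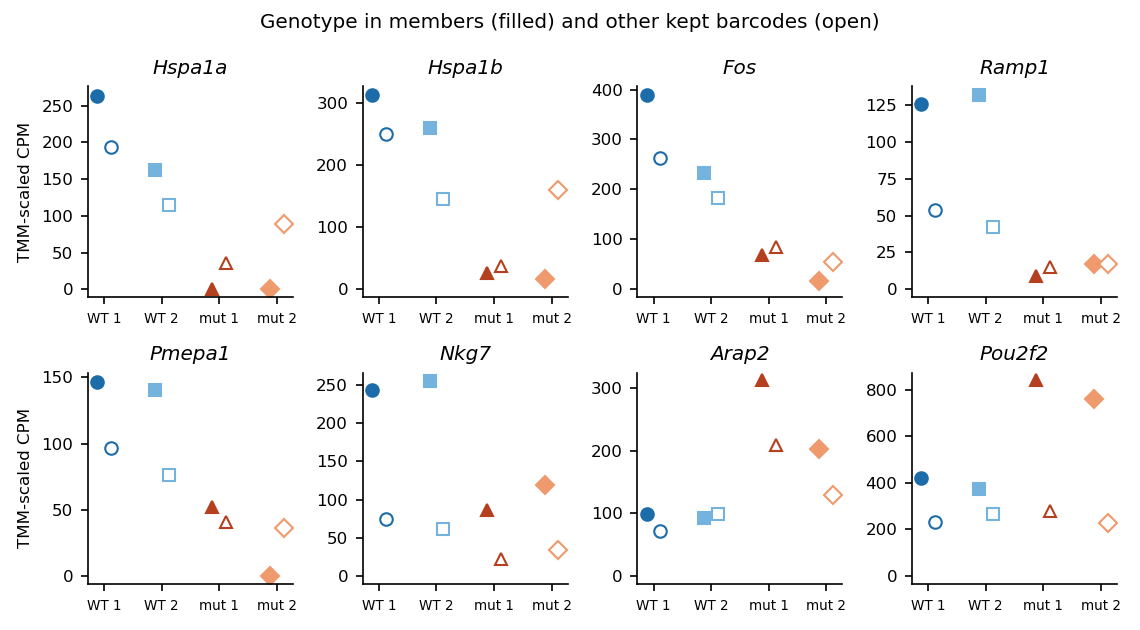
TMM-scaled CPM per library (y axis, linear) in members (filled) and in other kept barcodes (open) for 8 genes named in the genotype comparison. Hspa1b in members is at 312 and 259 CPM in WT and 26.1 and 16.9 CPM in mutant libraries.

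For the rule genes and their relatives the genotype values in members are a description. Nr4a3 was at 220, 167, 304 and 813 CPM, Nr4a1 at 511, 405, 391 and 288 CPM, Tnfrsf9 at 492, 374, 548 and 423 CPM and Myc at 163, 74.8, 174 and 169 CPM in WT 1, WT 2, mutant 1 and mutant 2. Nr4a1 was lower and Nr4a3 higher in both mutant libraries, though 27 of the 48 Nr4a3 UMIs in mutant 2 came from 1 cell, and Tnfrsf9 and Myc overlapped. Nr4a2, outside the rule, was at 123, 154, 200 and 440 CPM (1.09, edgeR adjusted p = 0.397), and 10 of its 26 UMIs in mutant 2 were from 1 cell. Rel differed by 1.14 (edgeR adjusted p = 0.320), with 23 of its 44 UMIs in mutant 2 from 1 cell, and passed without mutant 1 (1.52, edgeR adjusted p = 4.17e-05). Nkg7 was at 244, 255, 86.9 and 118 CPM (-1.29, edgeR adjusted p = 0.300), with both mutant libraries lower, and passed without mutant 2 (-1.46, edgeR adjusted p = 0.0316).

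TGF-beta-induced genes had 7 members tested within these cells and none passed, with a median difference of -0.60, beside -0.01 over all genes. Pmepa1, an inhibitor of TGF-beta signalling that the pathway induces, was at 146, 141, 52.1 and 0 CPM (-1.90 ± 0.52, edgeR adjusted p = 0.306), so both mutant libraries were lower, and without mutant 1 it passed (-4.88, edgeR adjusted p = 0.00359). It fell by 1.15 in the others (edgeR adjusted p = 0.000645). Smad7, the inhibitory Smad, differed by -0.22 ± 0.46 in members (edgeR adjusted p = 0.916) and fell by 1.52 in the others (edgeR adjusted p = 0.000645). Skil differed by -0.93 in members (edgeR adjusted p = 0.593) and fell by 0.70 in the others (edgeR adjusted p = 0.0164). The interaction called none of the 13 genes of this list that it tested. Among growth genes 22 were tested and none passed, with a median of -0.15, and among receptor-signal genes 21 were tested and none passed, with a median of 0.30. In the other kept barcodes the same edgeR test called 163 of 10649 genes (1.53%), of which 100 rose (0.939%) and 63 fell (0.592%).

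The genotype effect differed between members and others, in a fit with library as a block, for 8 of 8982 genes (0.0891%) at an edgeR adjusted p under 0.05, with 472 at an unadjusted p under 0.05, while DESeq2 called none and had 132 at an unadjusted p under 0.05. The median over all genes was -0.17. Xcl1, a chemokine gene, led it (3.34 ± 0.52, edgeR adjusted p = 1.54e-06), but 86 of its 105 member UMIs in mutant 1 were from 1 cell, as were 62 of 72 in WT 1 and 41 of 45 in WT 2. Without mutant 1 the Xcl1 value turned to -1.88 (edgeR adjusted p = 0.818). Ube2c, a mitotic ubiquitin-conjugating enzyme, had all 29 of its UMIs in mutant 1 in 1 cell (5.32, edgeR adjusted p = 0.00946). Gbp7, an interferon-induced GTPase, gave 2.36 (edgeR adjusted p = 0.00723), also with most of the mutant UMIs in single cells. Hspa1a gave -6.88 (edgeR adjusted p = 0.00216), a size that depends on the prior count because both mutant member sums were at 0. Hspa1b gave -2.42 (edgeR adjusted p = 0.0337), Ddit4, a stress-induced inhibitor of mTOR, -2.29 (edgeR adjusted p = 0.0106) and Ifi47, an interferon-induced GTPase, 1.34 (edgeR adjusted p = 0.0431). Of the 8 genes, without WT 1 only Xcl1 passed and without WT 2 only Hspa1a, each as the 1 gene called. Without mutant 1 there were 27 called genes, and without mutant 2 there were 11. Without mutant 2, Hspa1b fell back to -1.09, Gbp7 to 1.27 and Ifi47 to 0.07, and these no longer passed. Hspa1a was at -6.55 in that fit and no longer passed either. Without mutant 1, Ddit4 no longer passed (-1.94, edgeR adjusted p = 0.324), Hspa1b was at -3.93 (edgeR adjusted p = 0.00367) and Ifi47 at 2.64 (edgeR adjusted p = 4.68e-08), and Gbp7 without WT 1 was at 4.49 (edgeR adjusted p = 0.0739).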

How the data were processed

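Single-cell RNA was measured in 4 libraries, 2 for each genotype, and 2 further WT samples labelled as hashtag libraries had no matrix used here. The authors' deposited matrices hold UMI counts per gene and cell barcode for 32285 genes, made with Cell Ranger 6.0.0 on mm10, per the file headers and the submitters' processing notes, which also name Seurat 4 without its role; the annotation version is not given in the sources used here. Members and gene lists were chosen with earlier results of these data known.

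The counts of members, and of the other kept barcodes, were added up within each library. After filterByExpr and TMM scaling, the quasi-likelihood test of edgeR 4.0.16 was run (R 4.3.3, limma 3.58.1, prior count 2, Benjamini-Hochberg adjusted p under 0.05), mutant minus WT, within members and within others, and as an interaction that kept the library as a block. DESeq2 1.42.0 was an alternative. Members against others were described as log2 ratios of CPM within each library, with 5 CPM added. Doublets were called with Scrublet in scanpy 1.11.5. Shares have exact binomial 95% intervals, and thinning drew 4000 UMIs from each cell (seed 1). Python 3.11.15, numpy 2.4.6, scipy 1.17.1 and matplotlib 3.10.9 were used. Genes were named by rule: the rule genes and Srm, the 12 highest and 8 lowest ratios, genes past a threshold (5 of the interaction, or the 5 smallest p in a direction with none), and up to 4 abundant genes of each list. Predicted, receptor-segment, mitochondrial and ribosomal protein genes were counted but not named. Coordinates are from GENCODE on mm10, 1 gene called by the interaction is not reported here, and no count table column was left without a sample.

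The test was checked on simulated counts for 3083 genes of the comparison within members: of 2811 genes tested, it recovered 35.1% of 2-fold and 87.8% of 4-fold changes with 1 false call. All genes were drawn at 1 common dispersion (spread between libraries) of 0.0164. Uneven spread over cells was not modelled, so recovery and false calls in the real member sums may differ. Alternatives covered filters, scaling, tool, member rule, depth, mitochondrial limit, doublets, shared barcodes, pairing and leaving out each library.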

Additional observations from a re-analysis of the deposited data

Results flagged for a closer look

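The genotype effect in members minus that in the other kept barcodes passed the interaction test of edgeR for these genes, and all values are log2 differences. Xcl1 (3.34), Gbp7 (2.36), Ube2c (5.32) and Ifi47 (1.34) were relatively higher in mutant members. Most of their UMIs in at least 1 mutant library came from 1 cell: 86 of 105 for Xcl1 and all 29 for Ube2c in mutant 1, and 25 of 30 for Ifi47 in mutant 2. Hspa1a (-6.88), Hspa1b (-2.42) and Ddit4 (-2.29) were relatively lower. Ddit4 had 105, 40, 3 and 3 UMIs in members of WT 1, WT 2, mutant 1 and mutant 2.

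The WT matrices hold counts of 3 antibody tags, 301, 302 and 303, that no comparison used, and what these mark is not stated in the labels. In WT 1, members were 11.5% of the kept barcodes in which tag 301 was highest (52 of 452, 95% exact interval 8.71% to 14.8%), 4.16% with tag 302 (19 of 457, 2.52% to 6.42%) and 7.48% with tag 303 (24 of 321, 4.85% to 10.9%). In WT 2 the shares were 3.45% (5 of 145, 1.13% to 7.86%), 1.32% (1 of 76, 0.0333% to 7.11%) and 4.66% (18 of 386, 2.79% to 7.27%). The share with tag 301 was the highest in WT 1 but not in WT 2, and no test across tags was run.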

How the results depend on the processing

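The mean member share was lower in mutant than in WT libraries in each alternative run, though single libraries overlapped after thinning and with all 4 rule genes, from -9.27 percentage points with at least 2 rule genes to -0.573 after thinning to 2000 UMIs. The main count of 2 genes within members (none rose, 2 fell) was 0 with at least 10 UMIs in every library or with DESeq2, 1 at a mitochondrial limit of 5% or without TMM, 22 with no filter (12 rose), 7 after thinning to 4000 UMIs (of 350 tested, all rose), 28 with Il4, Il21 or Ascl2 barcodes (20 rose, 8 fell), and 7 to 113 leaving out 1 library (7 without WT 1, 10 without WT 2, 113 without mutant 1, 39 without mutant 2). Those fits assume that a lone library varies like the other group. With the replicate number as a block the count was 19 (12 rose, 7 fell); same-numbered libraries had deviations that correlated at 0.0325, so the numbers are not taken as pairs. The interaction count of 8 was 0 with at least 10 UMIs in every sum or with DESeq2, and 1 to 27 leaving out 1 library.

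The 16 genes 2-fold higher in members of every library became 10 after thinning, 2 against barcodes with exactly 2 rule genes, 5 against others without Il4, Il21 and Ascl2, 8 with 20 CPM added and 20 to 33 leaving out 1 library. The 43 lower ones became 86, 0, 16, 27 and 50 to 101. Within members, Smad7 turned to 0.0067 at a mitochondrial limit of 5%, Eomes to -0.18 with Il4, Il21 or Ascl2 barcodes, and Xcl1 ran from -2.54 without mutant 1 to 2.93 without mutant 2 (interaction -1.88 to 3.77). The causes were not tested. Of the other values for single genes, 205 kept direction and call, 48 gained a call and 31 lost it. Within members, the fits without doublets and without shared barcodes equal the main fit, and they count among the 205.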

Other observations

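A few member cells held most of some transcripts in every library. Xcl1, a chemokine gene, was at 71.1, 173, 805 and 15.2 CPM in members of WT 1, WT 2, mutant 1 and mutant 2, against 2.91, 7.40, 2.05 and 1.74 CPM in other kept barcodes. Only 5, 3 and 2 members of WT 1, WT 2 and mutant 1 had a UMI of it, beside the cell behind the 1 UMI in mutant 2. Among Eomes-positive members, 24 of 34 also had a Crtam UMI, against 69 of 129 Eomes-positive other barcodes. Egr3 and Gpr183 occurred together in 48 of 137 members (35.0%) and 430 of 2750 others (15.6%), but in 0 of 5 members of mutant 2 against 13.0% of its others, and members are deeper.

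The mutant values rest on 18 member cells, of which mutant 2 gave 5, so a difference of 1 UMI there is 15.2 CPM. The rule needs UMIs of several scarce transcripts, so membership depends on depth, and cells of this kind with fewer UMIs were missed. The libraries share no stated pairing, and antibody tags were used in WT alone.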
